A study of Mus musculus with 10 samples.

Results

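Sterol sensing was followed through 6 genes named for this purpose: Srebf1, Srebf2, Scap, Insig1, Insig2 and Mylip. All 6 were found by symbol, entered in lower case (srebf1, srebf2, scap, insig1, insig2 and mylip), among the 14812 gene entries of a single-cell survey of mouse liver. Of the 6, 5 passed the abundance filter, a mean of 3 CPM (counts scaled to a common library total of 1000000). The survey held 18378 hepatocytes, the main cells of the liver parenchyma, from C57BL/6 male mice aged 3 months on regular chow ad libitum. All animals were anaesthetized with ketamine and xylazine, and cells were obtained by collagenase perfusion and a Percoll gradient, so every group shares these steps. Groups differed in Zeitgeber time (ZT, hours in the light-dark cycle, with ZT0 by convention at lights on): ZT0 and ZT12 had 3 libraries each, ZT6 and ZT18 had 2 each. Libraries are named by time and letter (ZT0A). The number of mice per library is not stated, so p-values measure the spread between libraries, which may be partly technical.

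Libraries held 1454623 to 7144803 unique molecular identifiers (UMIs, counts of tagged molecules). ZT12A was the least deep. The defining hepatocyte markers in the files were abundant (summed level 46720 to 87030 CPM). Markers of most other cell types were low, apart from the erythroid list. Summed levels were 2.75 to 15.02 CPM for endothelial cells (4 of 6 markers with a UMI, none for Clec4g and Ptprb), 0 to 6.46 CPM for macrophages (4 of 6, none for Clec4f and Csf1r) and 3.42 to 11.6 CPM for stellate cells (6 of 6). Only 1 of 7 lymphocyte markers had a UMI. Neutrophil markers summed to 0 to 7.70 CPM and cycling markers to 1.38 to 6.72 CPM. Erythroid markers summed to 72.2 to 360.5 CPM, and Alas2 alone held 67.4 to 106.9 CPM across libraries. Of the cholangiocyte markers, 4 of 4 in the files had a UMI: Sox9 held 565, against 2 for Krt19, 3 for Krt7 and 3 for Epcam. Their sum, which is mainly Sox9, differed with time: 17.4 to 32.5 CPM at ZT0, 0.773 to 4.27 at ZT6, 3.44 to 6.53 at ZT12 and 11.6 to 17.3 at ZT18. The ZT18 libraries stood apart. ZT18A, labelled male, held 117 UMIs of Xist, the X inactivation RNA of female cells, in 64 of 1678 cells, against 0 or 1 UMI in each other library. ZT18B held 293.2 CPM of haemoglobin against at most 8.8 CPM elsewhere. Both also share a column of index barcodes that no other time used, so that column and ZT18 cannot be told apart. For some results that rest on them, values without both are also given.

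Sterol regulatory element binding proteins (SREBPs) are transcription factors made as precursors in the membrane of the endoplasmic reticulum. The escort protein SCAP carries them to the Golgi, where proteases release the active part. When sterols are plentiful, SCAP binds an INSIG protein and the complex stays behind. SREBP-2, from Srebf2, mainly drives sterol synthesis, and SREBP-1c, a product of Srebf1, drives fatty acid synthesis. Insig1 is itself an SREBP target, whereas Insig2 is known in liver for a transcript that insulin lowers. Mylip encodes a ubiquitin ligase induced by liver X receptors, which respond to oxidized sterols. The measurement covers messenger RNA only, not protein, its cleavage or its place in the cell.

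Promoter windows are shown for Insig1 and Insig2 because Insig2 was the member with a called rhythm and Insig1 encodes its close relative. Each window runs from 250 bases before to 50 bases after a transcription start in RefSeq (GRCm38.p6). Capitals mark matches on either strand to any of 6 motifs: TCACNCCAC (a sterol regulatory element), CACGTG (E-box), CCAAT (NF-Y box), GGGCGG (GC box), TTANGTAA (D-box) and AGGTCA (nuclear receptor site).
Insig1, chr5:28071162-28071461, plus strand: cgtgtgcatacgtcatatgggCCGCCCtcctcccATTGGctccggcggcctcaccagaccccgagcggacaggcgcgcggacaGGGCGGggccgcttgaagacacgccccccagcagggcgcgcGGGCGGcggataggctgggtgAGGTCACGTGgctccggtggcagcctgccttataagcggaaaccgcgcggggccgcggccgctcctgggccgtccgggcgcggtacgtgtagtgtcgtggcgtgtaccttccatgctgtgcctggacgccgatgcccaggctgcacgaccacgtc
Insig2 window 1, chr1:121332540-121332839, minus strand: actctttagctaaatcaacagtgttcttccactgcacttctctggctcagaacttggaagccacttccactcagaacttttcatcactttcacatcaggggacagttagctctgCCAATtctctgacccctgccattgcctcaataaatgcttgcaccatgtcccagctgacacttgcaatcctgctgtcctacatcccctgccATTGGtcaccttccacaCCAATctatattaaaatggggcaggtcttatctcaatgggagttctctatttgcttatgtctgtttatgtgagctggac
Insig2 window 2, chr1:121327975-121328274, minus strand: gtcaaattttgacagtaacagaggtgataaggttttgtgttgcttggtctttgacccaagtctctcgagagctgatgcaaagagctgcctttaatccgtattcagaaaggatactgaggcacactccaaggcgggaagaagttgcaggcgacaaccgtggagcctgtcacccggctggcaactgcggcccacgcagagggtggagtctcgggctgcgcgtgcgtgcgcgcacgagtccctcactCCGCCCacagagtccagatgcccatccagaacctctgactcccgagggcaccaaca
Insig2 window 3, chr1:121327629-121327928, minus strand: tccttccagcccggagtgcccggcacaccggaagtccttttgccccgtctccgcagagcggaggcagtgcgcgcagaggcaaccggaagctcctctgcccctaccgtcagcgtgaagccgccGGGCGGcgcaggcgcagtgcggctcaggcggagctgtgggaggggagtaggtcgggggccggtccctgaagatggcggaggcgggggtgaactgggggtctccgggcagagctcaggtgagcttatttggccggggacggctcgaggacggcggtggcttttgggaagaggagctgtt

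The Insig1 window held 1 CACGTG, 1 AGGTCA overlapping it, 1 CCAAT and 3 GGGCGG matches. Among 32851 RefSeq windows of the same length, 7.15% held CACGTG, 16.3% AGGTCA, 37.4% CCAAT and 35.7% GGGCGG. The 3 Insig2 starts held 3 CCAAT matches, 1 GGGCGG match and 1 GGGCGG match in turn. Neither gene's windows held TCACNCCAC (1.24% of all windows) or TTANGTAA (2.32%). These matches describe letters in a window and are not binding sites. All 6 genes had a window in the table. Counting of molecules at the 3' end cannot tell which start a transcript used, so the Insig2 starts, and the SREBP-1a and SREBP-1c transcripts of Srebf1, were counted together.

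By the annotation GENCODE M21 (GRCm38), whose build need not be the one used for counting, Insig1 spans chr5:28071363-28078662 and Insig2 spans chr1:121304353-121332589. Srebf1 lies at chr11:60199089-60222581, Srebf2 at chr15:82147181-82205379 and Scap at chr9:110333288-110384950. Mylip lies at chr13:45389742-45412022. Srebf1 overlaps Rai1 on the other strand, Insig2 overlaps Gm37174, Scap overlaps 5830462I19Rik and Srebf2 overlaps Gm49502. Whether counting used strand is not given in the sources used here, so reads in those overlaps could have been assigned to either gene.

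The first question was which of these genes follow the time of day. Insig2, whose protein holds SCAP in the endoplasmic reticulum, fell from the start of the light phase to the start of the dark phase. It was the 1 of 5 tested genes with a called 24 h rhythm, against a background of 5.14% of 8908 genes. Calls used an edgeR quasi-likelihood test with a Benjamini-Hochberg adjusted p under 0.05. Levels of Srebf1 and Insig1 were also unequal between times in several libraries, but neither passed this test. On simulated data the test recovered 9% of rhythms with a log2 amplitude of 0.5. Not passing therefore does not show that a rhythm of that size is absent.

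Insig2 measured 438 (A), 482 (B) and 658 (C) CPM at ZT0, 279 and 303 CPM at ZT6, 179, 104 and 202 CPM at ZT12, and 314 and 276 CPM at ZT18. All 3 ZT0 libraries lay above all other libraries, and all 3 ZT12 libraries lay below them. The ZT6 and ZT18 libraries overlapped, with means of 290.9 ± 17.5 and 294.9 ± 27.2 CPM (SD, n = 2 each). The mean was 526.1 ± 117 CPM at ZT0 and 162 ± 51.4 CPM at ZT12 (SD, n = 3 each). The fitted wave peaked at ZT 23.8 with an amplitude of 0.93 on the log2 scale from mean to peak, a peak-to-trough fold of 3.62 (edgeR adjusted p = 0.00181). Without both ZT18 libraries the amplitude was again 0.93 (edgeR adjusted p = 0.00528). Insig2 was called in each of the 10 fits that left out 1 library, with amplitudes of 0.83 to 0.99 and peaks from ZT 23.6 to ZT 23.97. Like Insig2, the summed cholangiocyte markers, which are mainly Sox9, were highest at ZT0, and their part in the result was not tested. Samples every 6 h cannot separate a wave from a shorter pulse.

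ZT12 was compared with ZT0 directly. Insig2 was 3.62-fold lower at ZT12, -1.86 ± 0.24 on the log2 scale (SE; edgeR adjusted p = 0.000685), and it was lower in 9 of the 9 pairs of a ZT12 with a ZT0 library. It was the only 1 of the 5 called, against a background of 3.44% of genes. Between these times the libraries did not overlap for 18.1% of all genes. With libraries of the same letter as a block, the difference was -1.87 ± 0.21 (edgeR adjusted p = 0.000164), and 504 genes were called in place of 306. Scaling by library size alone moved the median of all genes by 0.13 on the log2 scale and the share of higher calls from 50.6% to 66.7%, and Insig2 was called as lower under every scaling tried.

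Insig1, the SREBP-induced relative of Insig2, also retains SCAP. It measured 472, 582 and 698 CPM at ZT0, 278 and 280 CPM at ZT6, 687, 238 and 499 CPM at ZT12, and 518 and 564 CPM at ZT18. The ZT6 libraries were low and close together, whereas ZT12 spanned 238 (B) to 687 (A) CPM, nearly the range of the whole series. Means were 584 ± 113, 279 ± 1.68, 474.5 ± 225 and 541 ± 32.2 CPM at ZT0, ZT6, ZT12 and ZT18 (SD). The rhythm amplitude was 0.56 with its peak at ZT 19.6 (edgeR adjusted p = 0.244). ZT18 exceeded ZT6 by 1.03 ± 0.37 on the log2 scale (SE), and no overlap was seen, but the test was not passed (edgeR adjusted p = 0.142). With 2 libraries a group, 62% of all genes did not overlap between ZT6 and ZT18. Without ZT12A the Insig1 rhythm was called (amplitude 0.68, edgeR adjusted p = 0.0458). Without both ZT18 libraries it was not called (amplitude 0.95, edgeR adjusted p = 0.263).

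**Figure D1:**
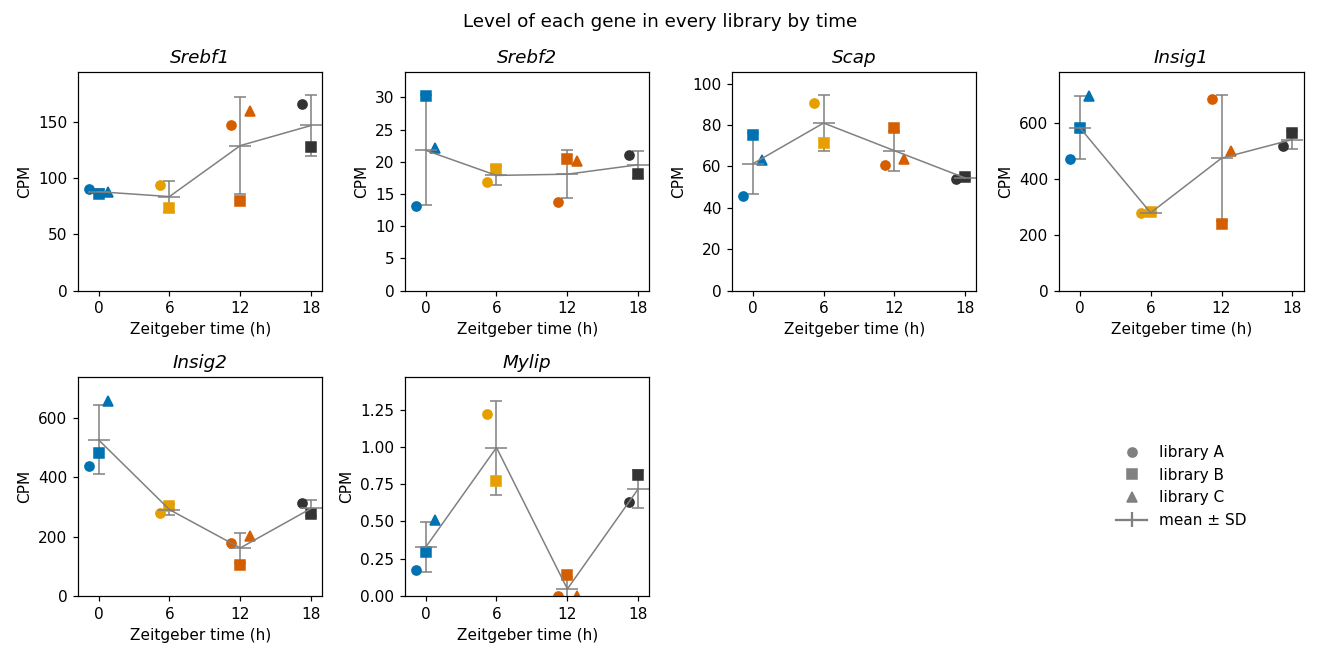
Level (CPM) of each of the 6 genes in every library against Zeitgeber time (h), with 1 symbol per library (A circle, B square, C triangle) and grey bars for mean ± SD (n = 3 at ZT0 and ZT12, n = 2 at ZT6 and ZT18). Insig2 runs from 438 to 658 CPM at ZT0 down to 104 to 202 CPM at ZT12, while Insig1 at ZT12 spans 238 to 687 CPM.

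The ratio of Insig1 to Insig2 UMIs within a library does not depend on the library's total. Because capture can differ between genes, only its change between libraries is described. It was 1.08, 1.21 and 1.06 at ZT0, 0.997 and 0.924 at ZT6, 3.83, 2.30 and 2.47 at ZT12, and 1.65 and 2.05 at ZT18. The ZT12 ratios lay above those of the other 7 libraries, and the ZT18 ratios lay between them and the rest. At ZT12 all 3 libraries had ratios of 2.30 or more, although their Insig1 levels differed widely. Both ZT6 ratios lay below those of all other libraries. The ratio combines genes already described and was not tested.

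**Figure D2:**
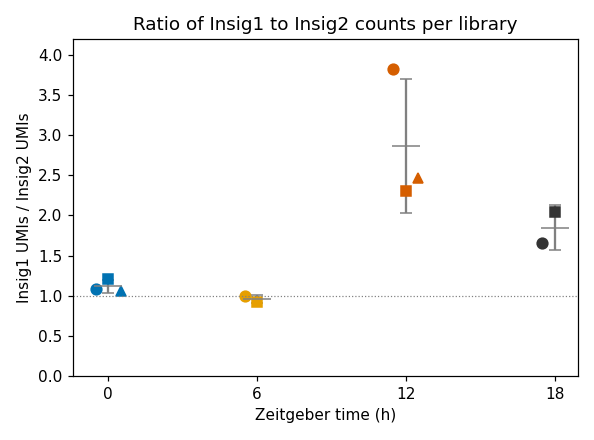
Ratio of Insig1 to Insig2 UMI counts in each library (circle A, square B, triangle C) against Zeitgeber time (h), with mean ± SD in grey and a dotted line at equal counts. Ratios lie at 0.924 to 1.21 at ZT0 and ZT6, 2.30 to 3.83 at ZT12 and 1.65 to 2.05 at ZT18.

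Srebf1, the source of SREBP-1a and SREBP-1c, measured 90.4, 86.4 and 87.4 CPM at ZT0, 93.7 and 73.8 CPM at ZT6, 148, 79.9 and 160 CPM at ZT12, and 166 and 128 CPM at ZT18. Both ZT18 libraries and ZT12A and ZT12C lay above all the others, and ZT12B lay among the ZT6 values. The fitted amplitude was 0.48 with its peak at ZT 16.4, a peak-to-trough fold of 1.96 (edgeR adjusted p = 0.111). ZT18 exceeded ZT6 by 0.89 ± 0.28 on the log2 scale (SE; edgeR adjusted p = 0.101). None of the 5 genes passed in the ZT18 against ZT6 comparison, against a background of 3.79%. At an unadjusted edgeR p under 0.05 there were 2 (Srebf1 and Insig1), against 1744 of all 8908 genes. DESeq2 also called neither in that comparison. With the letter as a block, Srebf1 was called there (0.89, edgeR adjusted p = 0.0357). Without ZT12B, both were called there, at an edgeR adjusted p of 0.0414 for Srebf1 and 0.0474 for Insig1. The Srebf1 rhythm was likewise called without ZT12B (edgeR adjusted p = 0.0409) and by DESeq2 (adjusted p = 0.048). These were 1 of 10 fits that left out 1 library and 1 of 10 other settings. Over those other settings the amplitude ran from 0.18 to 0.49. Without both ZT18 libraries the Srebf1 rhythm was not called (amplitude 0.40, edgeR adjusted p = 0.493).

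Srebf2, the source of SREBP-2, had the fewest UMIs of the tested members. It measured 13.1, 30.2 and 22.1 CPM at ZT0, 16.9 and 18.9 CPM at ZT6, 13.8, 20.4 and 20.1 CPM at ZT12, and 21.1 and 18.1 CPM at ZT18. The ZT0 libraries alone spanned the whole range of the series. Its amplitude was 0.21 (edgeR adjusted p = 0.598), resting on 20 to 203 UMIs a library. The ratio of Srebf1 to Srebf2 UMIs was 2.86 to 6.91 at ZT0, 3.90 to 5.55 at ZT6, 3.91 to 10.8 at ZT12 and 7.09 to 7.88 at ZT18. Both ZT18 ratios lay above all those of ZT0 and ZT6 and within the range of ZT12.

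Scap, the escort of both factors, measured 45.7, 75.1 and 63.0 CPM at ZT0, 90.4 and 71.5 CPM at ZT6, 60.5, 78.5 and 63.8 CPM at ZT12, and 54.1 and 54.7 CPM at ZT18. The ZT6 mean, 80.9 ± 13.4 CPM, was the highest of the 4 and overlapped both ZT0 and ZT12. Neither its rhythm (amplitude 0.25, edgeR adjusted p = 0.438) nor the ZT18 against ZT6 difference (-0.50 ± 0.25 on the log2 scale, SE; edgeR adjusted p = 0.296) passed. The ZT12 against ZT0 difference was 0.02 ± 0.20 (SE; edgeR adjusted p = 0.975).

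Mylip, the ubiquitin ligase, was near the detection limit. It had 20 UMIs among 43375448, 0 to 6 a library with at least 1 in 8 libraries, a pooled level of 0.461 CPM (95% exact Poisson interval 0.282 to 0.712 CPM, counting error only). The ZT0 libraries held 6 of the UMIs, those of ZT6 held 8, those of ZT12 held 1 and those of ZT18 held 5. A count of 0 allowed up to 0.420 CPM in the deepest library and 2.06 CPM in the shallowest. It lay below the filter. Tested without a filter, it was called in none of 5 time tests (edgeR adjusted p = 0.299 to 0.919). The smallest came from setting ZT0 with ZT12 against the other times, with an unadjusted p of 0.0141.

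The test for unequal means among times, which assumes no wave, called Insig2 alone of the 5 (edgeR adjusted p = 0.00252), against a background of 6.58%. The contrast of ZT0 and ZT12 with ZT6 and ZT18, which a 24 h wave cannot produce, called none of the 5 with edgeR or DESeq2. None had an unadjusted edgeR p under 0.05 in it, against 1068 of all 8908 genes. Its background of adjusted calls was 0.505%.

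The second question was how the genes are arranged between the portal vein, where blood enters the lobule, and the central vein, where it leaves. Cells of each library were ordered by 8 periportal and 8 pericentral landmark genes, none of them a member, and cut into 3 zones of equal cell number. Srebf1 was higher in periportal cells, which makes 1 of 5 called, against a background of 24.8% of 8923 genes (12% higher, 12.8% lower). The fitted excess was 1.38-fold. Insig1, Insig2, Scap and Srebf2 did not pass over all times.

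Srebf1 averaged 95.2 ± 33.9 CPM in pericentral, 115 ± 39.7 CPM in middle and 123 ± 38.3 CPM in periportal cells (SD, n = 10). Within libraries the periportal minus pericentral difference of log2(CPM + 1) ran from 0.02 (ZT12A) through a median of 0.39 to 0.997 (ZT6B). It was above 0 in 10 of 10 libraries, as it was one way or the other for 12.3% of all genes. The fitted difference was 0.46 ± 0.08 on the log2 scale (SE; edgeR adjusted p = 5.13e-05). It was 0.49 without both ZT18 libraries (edgeR adjusted p = 0.000169).

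The scale of these differences depends on the normalization. Fitted values use TMM scaling, under which the median of all genes was -0.01. With library size alone that median was -0.11, and 27.9% of called genes in place of 48.3% were periportal. Srebf1 (0.37) was called and periportal with library size alone too. Differences within libraries use CPM and so share the lower scale. The mitochondrial share of UMIs, whose part in the result was not tested, also differed by zone, with medians over libraries of 15.2% in pericentral, 17.7% in middle and 18.6% in periportal cells.

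For Scap the fitted periportal difference was 0.19 ± 0.08 (SE; edgeR adjusted p = 0.0828), with 6 of 10 libraries above 0. It passed with odd-numbered landmarks alone (edgeR adjusted p = 0.0346), in genes of at least 20 CPM (0.0419) and without ZT0A (0.0449). These were 2 of 9 other settings and 1 of 10 fits that left out 1 library. Over the 9 settings the Scap difference ran from 0.07 to 0.26. For Srebf2 the difference was 0.05 ± 0.14 (SE; edgeR adjusted p = 0.835), with 4 of 10 libraries above 0. For Insig1 it was -0.07 ± 0.08 (SE; edgeR adjusted p = 0.560), and for Insig2 0.13 ± 0.09 (SE; edgeR adjusted p = 0.335). No member differed between the middle zone and the mean of the outer zones with edgeR or DESeq2. With edgeR, 0.707% of genes did. At an unadjusted p under 0.05 there were 3 (Insig2, Scap and Srebf2), against 735 of all 8910 genes (edgeR).

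In 8 layers of equal cell number, layer 1 at the central and layer 8 at the portal end, mean Srebf1 went from 83.3 CPM to 123 CPM over all libraries, with its highest mean, 129 CPM, in layer 6. The SD over libraries was 30.2 to 48.6 CPM, so the mean ± SD of neighbouring layers overlapped. Layers held 156062 to 962315 UMIs a library.

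**Figure D3:**
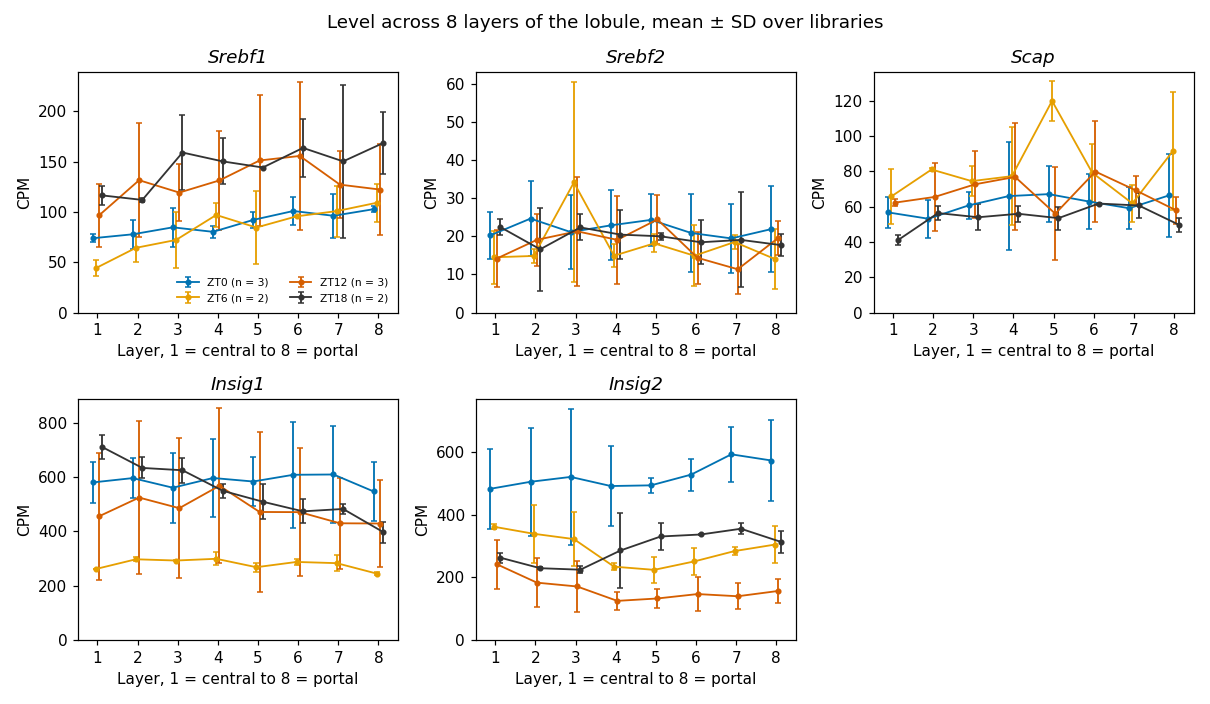
Level (CPM, mean ± SD over libraries) in 8 layers of equal cell number from central (1) to portal (8), with 1 line per time, for the 5 genes above the filter. Insig1 at ZT18 runs from 711 CPM in layer 1 to 397 CPM in layer 8, and Srebf1 at ZT6 from 44.2 to 109 CPM.

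The last question was whether the zone difference depends on the time of day. With a zone difference fitted at each time, Srebf1 and Insig2 were called at ZT0, Srebf1 at ZT6, none at ZT12, and Insig1 and Insig2 at ZT18. DESeq2 called none at ZT12 either. With edgeR, 1 (Insig2) had an unadjusted p under 0.05 there, against 1753 of all 8923 genes. The backgrounds of adjusted calls were 13.3%, 7.05%, 10% and 6.52% of genes at ZT0, ZT6, ZT12 and ZT18. These calls do not by themselves show that the times differ. The test of that difference, zone by cosine and zone by sine, called none of the 5 genes and 0.0448% of all genes. With DESeq2 it also called none of them. At an unadjusted edgeR p under 0.05 there was 1, Insig2, against 550 of all 8923 genes.

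For Insig2 the sign of the zone difference was not the same in all libraries. The periportal minus pericentral difference of log2(CPM + 1) was 0.33, 0.40 and -0.05 at ZT0, -0.15 and -0.38 at ZT6, -0.64, -0.10 and -0.58 at ZT12, and 0.55 and 0.43 at ZT18. All 5 libraries at ZT6 and ZT12 were below 0, both at ZT18 were above it, and ZT0 was mixed. The share of all genes with such a split of signs was not counted. With library size alone, the median fitted difference of all genes was itself below 0, at -0.11 for ZT6 and -0.09 for ZT12. ZT6A (-0.15) and ZT12B (-0.10) lay near those medians. In CPM, pericentral and periportal means were 205 ± 80.5 and 145 ± 35.8 at ZT12 (n = 3), against 239.8 ± 3.99 and 337 ± 24.9 at ZT18 (n = 2, SD). The interaction had an amplitude of 0.46 on the log2 scale and an unadjusted edgeR p of 0.000204, and it did not pass over all genes (edgeR adjusted p = 0.152). It passed with the library letter as a block (amplitude 0.46, edgeR adjusted p = 0.0053) and without ZT0C (amplitude 0.50, edgeR adjusted p = 0.00558).

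At ZT18 the fitted Insig2 difference was 0.57 ± 0.15 (SE; edgeR adjusted p = 0.0117) and at ZT0 it was 0.33 ± 0.11 (SE; edgeR adjusted p = 0.043). The ZT18 call was lost without ZT18A (edgeR adjusted p = 0.338) or ZT18B (0.177), which each leave 1 library at that time, assumed to vary like the other groups. The ZT0 call was lost without any 1 of ZT0A, ZT0B, ZT6A, ZT6B, ZT18A or ZT18B (edgeR adjusted p = 0.0526 to 0.360). DESeq2 (adjusted p = 0.213) and library size alone (0.189) did not give the ZT0 call either, and outer zones of 20% of cells each (0.0852) did not give the ZT18 call. Neither call was made with even-numbered landmarks (edgeR adjusted p = 0.0948 and 0.0789 for ZT0 and ZT18) or in the 3960 cells of at least 3000 UMIs (0.0676 and 0.611). The fitted values at ZT6 (-0.14 ± 0.14) and ZT12 (-0.31 ± 0.14) did not pass (SE; edgeR adjusted p = 0.717 and 0.182).

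Insig1 went the other way at ZT18. Its pericentral and periportal levels were 672 and 420 CPM in ZT18A and 666 and 481 CPM in ZT18B, so the pericentral zone was higher in both. The fitted difference was -0.49 ± 0.15 (SE; edgeR adjusted p = 0.0406). It was not called without ZT18A (edgeR adjusted p = 0.593), ZT18B (0.199), ZT6A (0.061), ZT6B (0.0584) or ZT0B (0.0528), or with DESeq2 (adjusted p = 0.164). Even-numbered landmarks (edgeR adjusted p = 0.131) and cells of at least 3000 UMIs (0.0956) did not give it. Over the 8 layers at ZT18, mean Insig1 went from 711 ± 43.6 to 397 ± 38.9 CPM (SD, n = 2). At ZT6 the layer means stayed between 244 and 299 CPM. The interaction of zone with time had an edgeR adjusted p of 0.794 for Insig1.

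At ZT18 the ratio of Insig1 to Insig2 UMIs was 2.77 and 2.81 in pericentral cells and 1.18 and 1.504 in periportal cells of ZT18A and ZT18B. In the 3 ZT0 libraries it was 1.26, 1.49 and 0.884 in pericentral and 0.954, 0.963 and 1.13 in periportal cells. At ZT12 it was 3.18, 2.22 and 1.78 in pericentral and 3.61, 2.23 and 2.93 in periportal cells. At ZT6 it was 0.905 and 0.742 in pericentral and 0.891 and 0.956 in periportal cells of ZT6A and ZT6B. The periportal ratio was thus the higher in all 3 ZT12 libraries, narrowly in ZT12B, and the lower in both ZT18 libraries. At ZT0 and at ZT6 the libraries of a time did not all go the same way. These are ratios of the counts already described, without a test.

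**Figure D4:**
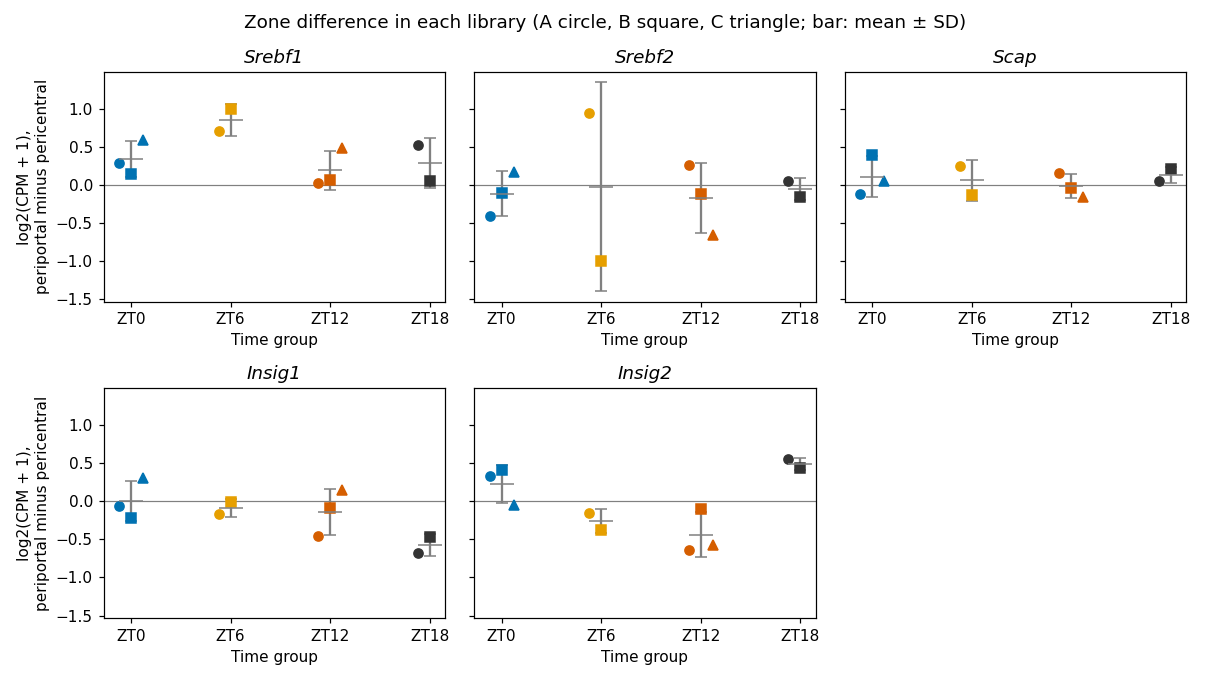
Periportal minus pericentral difference of log2(CPM + 1) in each library (A circle, B square, C triangle) by time, with mean ± SD in grey (n = 3 at ZT0 and ZT12, n = 2 at ZT6 and ZT18). Srebf1 lies above 0 in 10 of 10 libraries, and Insig2 lies below 0 at ZT6 and ZT12 and at 0.43 and 0.55 at ZT18.

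Srebf1 had its steepest zone difference at ZT6, where its level was 70.5 and 45.2 CPM in pericentral and 116 and 91.3 CPM in periportal cells of ZT6A and ZT6B. The fitted difference there was 0.93 ± 0.19 (SE; edgeR adjusted p = 0.000831). It was not called without ZT6B (0.80, edgeR adjusted p = 0.0654) or in cells of at least 3000 UMIs (0.77, edgeR adjusted p = 0.413). At ZT0 it was 0.44 ± 0.13 (SE; edgeR adjusted p = 0.0184), and not called without ZT0C (0.27, edgeR adjusted p = 0.294), with library size alone (0.34, edgeR adjusted p = 0.0726) or by DESeq2 (adjusted p = 0.214). At ZT12 (0.28 ± 0.15) and ZT18 (0.38 ± 0.16) it did not pass (SE; edgeR adjusted p = 0.302 and 0.205). The ZT18 difference passed with even-numbered landmarks (0.52, edgeR adjusted p = 0.0365) and with outer zones of 20% of cells each (0.60, edgeR adjusted p = 0.0392). The interaction of zone with time had an edgeR adjusted p of 0.873, so the times were not shown to differ.

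The members' patterns over the 30 values of library by zone were compared as a description, with no test, since the zones of a library share their cells' source. Among the members, Pearson's r of log2(CPM + 1) was 0.46 between Srebf2 and Scap, 0.43 between Insig1 and Insig2 and 0.42 between Srebf1 and Insig1. It was -0.56 between Scap and Insig1. The remaining pairs ran from -0.30 (Srebf1 and Scap) to 0.16 (Srebf2 and Insig2), with 0.05 between Srebf2 and Insig1 and -0.10 between Srebf1 and Srebf2. Among 4342 other genes of at least 20 CPM (4343 for Srebf2), those most like Insig2 were Psen2 (r = 0.88), Clpx (0.88) and St5 (0.87). Those most like Insig1 were Sar1b (0.85), a GTPase of the vesicle coat that carries SCAP, Zkscan3 (0.83) and Edem1 (0.81). For Srebf1 they were Tat (0.79), Lman1 (0.78) and Thrsp (0.77), a lipogenic SREBP-1c target. Srebf2 was most like Gcat (0.66), Fdft1 (0.65), which encodes squalene synthase, and Acsl5 (0.64). Scap was most like Lypla2 (0.82), St3gal3 (0.81) and Apol9b (0.81).

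The rest of the pathway was examined through 5 lists of 65 genes in all, to be read against the shares of all genes called for rhythm (5.14%) and zone (24.8%). Of 20 genes for SREBP transport, cleavage and INSIG turnover, 19 were tested, and none had a called rhythm with edgeR. Their median amplitude was 0.21 on the log2 scale, against 0.25 over all genes. At an unadjusted p under 0.05 there were 3, Sec23b, Sec24b and Sar1b, against 1816 of all 8908 genes. Sec23b measured 36.4 ± 9.82, 22.5 ± 0.662, 49.6 ± 12.3 and 53.2 ± 4.35 CPM at ZT0, ZT6, ZT12 and ZT18 (edgeR adjusted p = 0.0642), and DESeq2 called it alone of the list (adjusted p = 0.0189). It was also called with the letter as a block (edgeR adjusted p = 0.0218), without a filter (0.0358) and without ZT0A (0.0196). Without both ZT18 libraries it was not called (amplitude 0.93, edgeR adjusted p = 0.177). By zone, Vcp, the ATPase that extracts ubiquitinated proteins from the membrane, was lower in periportal cells in 10 of 10 libraries (-0.44 ± 0.07, SE; edgeR adjusted p = 3.05e-06). Erlin1 was higher by 0.24 ± 0.09 (SE; edgeR adjusted p = 0.0482), a call made in 3 of 10 fits that left out 1 library, and not by DESeq2 (adjusted p = 0.193), limma-voom (0.0519) or library size alone (0.277).

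Among liver X receptors and their targets, 7 of 8 listed genes were tested, and 2 had a rhythm: Abcg5 and Abcg8, the subunits of the pump that exports sterols into bile. Abcg5 measured 11.4 ± 1.19, 39.4 ± 3.22, 40.5 ± 5.59 and 12.6 ± 2.73 CPM at ZT0, ZT6, ZT12 and ZT18, with its peak at ZT 9.11 (amplitude 1.14, edgeR adjusted p = 0.000107). Abcg8 measured 23.3 ± 8.22, 61.1 ± 7.22, 66.4 ± 14.3 and 12.5 ± 2.79 CPM, with its peak at ZT 8.17 (amplitude 1.27, edgeR adjusted p = 0.00195). Both were also lower in periportal cells, by -0.49 ± 0.14 for Abcg5 and -0.73 ± 0.10 for Abcg8 (SE; edgeR adjusted p = 0.00856 and 2.76e-07). The Abcg5 zone difference was not called in cells of at least 3000 UMIs (edgeR adjusted p = 0.432).

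Of 19 sterol synthesis genes, targets of SREBP-2, 5 had a called rhythm (Fdps, Pmvk, Lss, Mvd and Sqle), against 8 with DESeq2 and 3 with limma-voom. Of the 5 peaks, 2 lay within 3 h of ZT0 and 3 within 3 h of ZT18. Fdps, farnesyl diphosphate synthase, measured 97.3 ± 8.37, 64.6 ± 8.62, 41.6 ± 2.27 and 49.7 ± 3.97 CPM in order from ZT0 to ZT18, with its peak at ZT 0.833 (amplitude 0.70, edgeR adjusted p = 0.00177). Pmvk peaked at ZT 0.0200 with an amplitude of 0.68 (edgeR adjusted p = 0.0168) and was not called without ZT0B (edgeR adjusted p = 0.0547) or ZT12B (0.0575). By zone, 2 were higher and 7 lower in periportal cells, and the list's median was -0.04. Hmgcs1, which makes HMG-CoA, fell from 308 ± 116 CPM in pericentral to 184 ± 82.8 CPM in periportal cells (-0.65 ± 0.08, SE; edgeR adjusted p = 2.19e-08). Sqle, squalene epoxidase, went the other way, from 34.4 ± 14.5 to 60.2 ± 19.4 CPM (0.90 ± 0.11, SE; edgeR adjusted p = 4.36e-08). Srebf2 itself passed neither test.

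Of 10 genes listed as fatty acid synthesis targets of SREBP-1c, 3 had a called rhythm, Fasn, Elovl6 and Thrsp, against 5 with DESeq2 and 3 with limma-voom. Fasn, the fatty acid synthase, measured 356 ± 132, 200.1 ± 36.0, 288 ± 50.7 and 620.0 ± 157 CPM in order from ZT0 to ZT18, with its peak at ZT 19.0 (amplitude 0.88, edgeR adjusted p = 0.015). It was not called without ZT6B (edgeR adjusted p = 0.065), without ZT18A (0.0996), without both ZT18 libraries (0.288) or with the index column as a block (0.0666). Elovl6, an elongase, peaked at ZT 14.9 (amplitude 0.82, edgeR adjusted p = 0.0256), was called in 7 of 10 fits that left out 1 library, and had an adjusted p of 0.0555 without both ZT18 libraries. The list's median amplitude was 0.70 against 0.25 over all genes. By zone, 4 were higher in periportal cells (Acaca, Acly, Fasn and Pnpla3), as Srebf1 was, and Me1 was lower. Pnpla3 averaged 3.75 CPM, just above the filter of 3 CPM. Acaca, acetyl-CoA carboxylase, measured 49.4 ± 16.3 and 86.5 ± 27.0 CPM in pericentral and periportal cells (0.90 ± 0.08, SE; edgeR adjusted p = 3.02e-11). Me1, malic enzyme, measured 291 ± 79.2 and 156 ± 36.6 CPM (-0.77 ± 0.08, SE; edgeR adjusted p = 5.34e-10).

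In sterol storage and transfer, 6 of 8 listed genes were tested. Soat2, which esterifies cholesterol, had a called rhythm (amplitude 0.60, peak ZT 7.83, edgeR adjusted p = 0.038), made in 2 of 10 fits that left out 1 library. It was not called without both ZT18 libraries (edgeR adjusted p = 0.23). Osbp, an oxysterol-binding protein, measured 26.2 ± 0.50, 26.4 ± 1.78, 28.6 ± 4.15 and 52.5 ± 2.29 CPM at ZT0, ZT6, ZT12 and ZT18. Its rhythm did not pass (edgeR adjusted p = 0.0738). It passed with DESeq2 (adjusted p = 0.0232), with the letter as a block (edgeR adjusted p = 0.0437) and without a filter (0.0495). Without both ZT18 libraries the Osbp amplitude was 0.09 (edgeR adjusted p = 0.963). None of the 6 differed by zone with edgeR, DESeq2 or limma-voom. With edgeR, 0 had an unadjusted p under 0.05, against 3063 of all 8923 genes. The smallest adjusted p-values were those of Stard3 (edgeR adjusted p = 0.606) and Gramd1c (0.615).

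**Figure D5:**
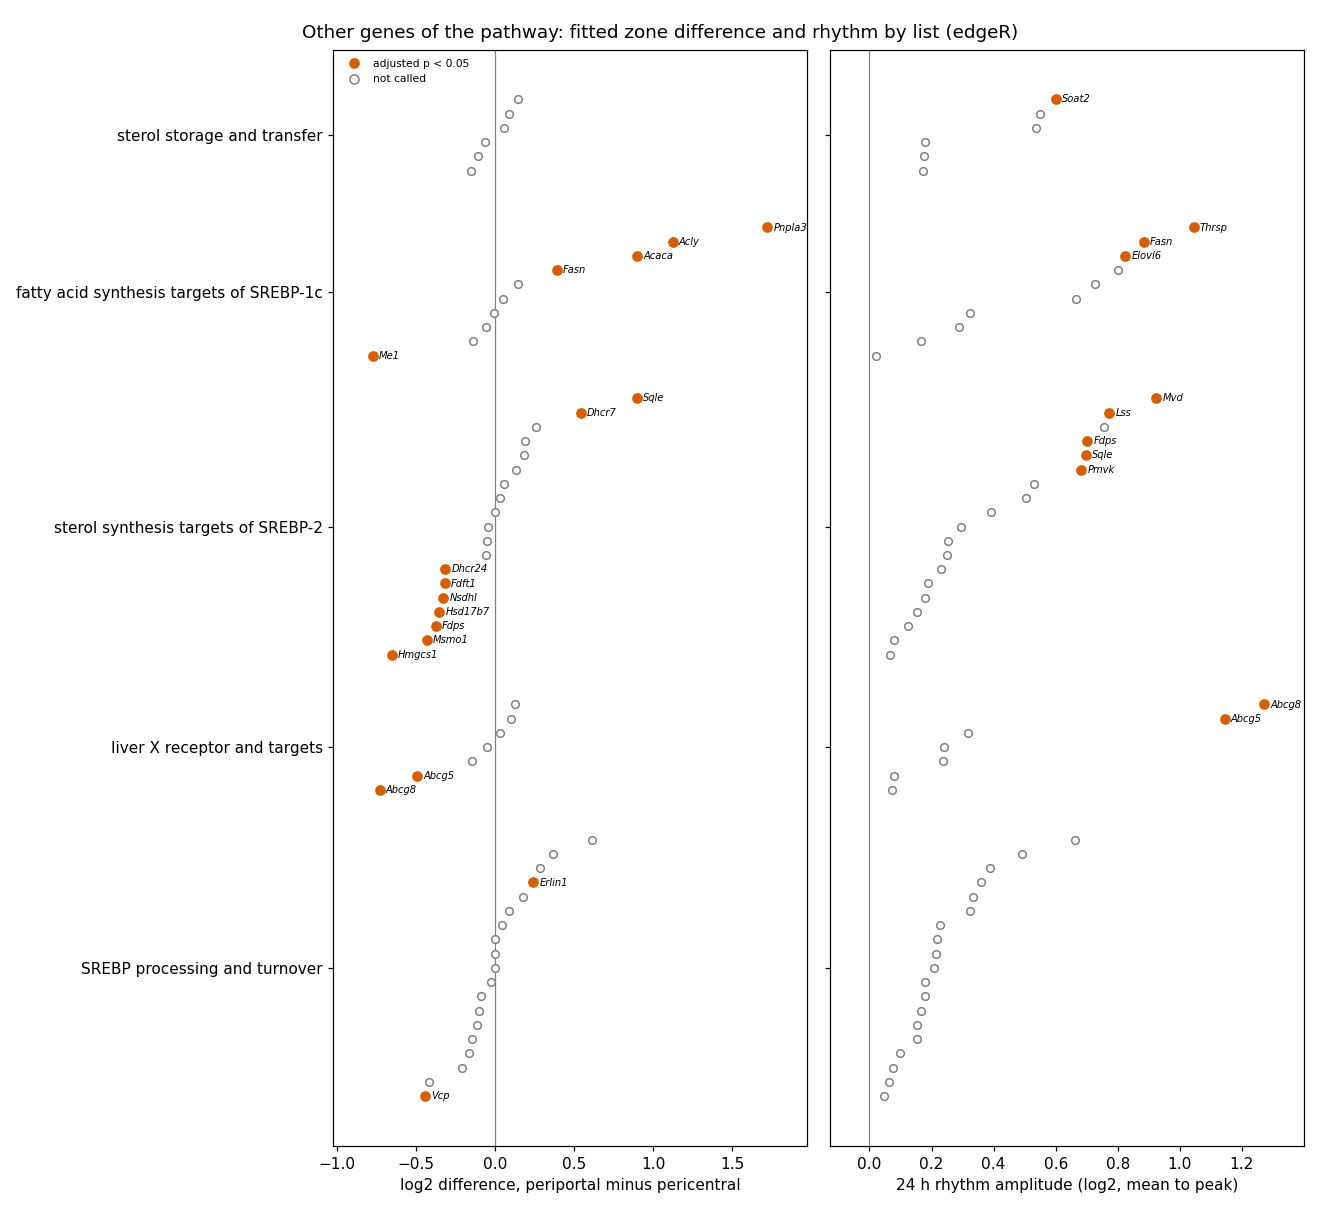
Fitted values of each tested gene in the 5 lists: left, periportal minus pericentral difference (log2); right, amplitude of the 24 h rhythm (log2, mean to peak). Filled points passed an edgeR adjusted p of 0.05 and are named. Of 19 sterol synthesis genes, 7 pass on the pericentral and 2 on the periportal side. Of 10 genes listed as fatty acid synthesis targets, 4 pass on the periportal and 1 on the pericentral side. Over all genes, 12.8% pass on the pericentral and 12% on the periportal side.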

How the data were processed

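Per the labels' protocols, hepatocytes were processed with the 10x Chromium 3' kit, version 2; the submitters' processing notes name Cell Ranger and the builds hg19 and mm10, without their roles. Aligner version, annotation, cell filter and strand setting are not given in the sources used here. The deposited values are raw UMI counts, as their whole numbers and unequal totals show; cells held 1048 to 10001 UMIs, and all were kept without doublet removal. Cell names are serial numbers, so shared barcodes could not be counted; 0 cell profiles were identical. Of the gene entries, 14321 matched a symbol. A gene of the set and a list of related genes are not reported here. Members and lists were chosen with earlier results of these data known.

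Counts were summed per library and tested with edgeR 4.0.16 in R 4.3.3 (TMM scaling, factors 0.888 to 1.143; glmQLFit and glmQLFTest; mean CPM of at least 3; Benjamini-Hochberg adjustment over all genes tested; threshold 0.05). Rhythm was a 2-df test of a 24 h cosine and sine, and times were compared in a model with 1 mean per time. For zones, cells of each library were ordered by mean z-scores of 8 periportal (Cyp2f2, Ass1, Asl, Hal, Ctsc, Hsd17b13, Pigr, Ftcd) minus 8 pericentral landmarks (Cyp2e1, Oat, Gulo, Mgst1, Aldh1a1, Lect2, Cyp1a2, Rgn). Scores from odd and even landmarks correlated at r = 0.683 to 0.847 across cells. Each library was cut into 3 zones of equal cell number, and the sums of the outer zones were compared with a term for library. The SE was taken from the log2 difference and its quasi-likelihood F. DESeq2 1.42.0 and limma-voom (limma 3.58.1) were alternatives. The rhythm and zone tests were tried on simulated data. The rhythm test recovered 83% of changed genes at a log2 amplitude of 1 and 9% at 0.5. The zone test recovered 94% at a log2 difference of 1 and 51% at 0.5.

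Named genes were all members reported, in each list the 2 genes with the smallest adjusted p in the rhythm and zone tests, and the 3 genes most like each member; other list genes are named where they were called or, beside a count of 0, had an unadjusted p under 0.05. Letters pair ZT0 with ZT12: same-letter libraries share an index column, and their deviations from the time means correlated at r = 0.238, 0.416 and 0.465. Letters at other times did not pair (r from -0.0304 to 0.106). Rhythm and time contrasts were therefore also fitted with the letter as a block.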

Additional observations from a re-analysis of the deposited data

Results flagged for a closer look

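The zone difference of Insig2, taken as periportal minus pericentral log2(CPM + 1), had opposite signs in all libraries of 2 pairs of times. Between ZT6 (mean -0.26, both libraries below 0) and ZT18 (mean 0.49, both libraries above 0) it differed by -0.75. Between ZT12 (mean -0.44, all 3 libraries below 0) and ZT18 it differed by -0.93. Neither pairwise difference was tested. Both were picked from these data, and the share of all genes with such a split of signs was not counted. With library size alone, the median fitted difference of all genes was -0.11 at ZT6, -0.09 at ZT12 and -0.09 at ZT18. The test over all 4 times did not pass over all genes (edgeR adjusted p = 0.152), and it passed with the library letter as a block (edgeR adjusted p = 0.0053). Both rest on the ZT18 libraries, of which ZT18A held 117 Xist UMIs and ZT18B 293.2 CPM of haemoglobin; the part of these in the result was not tested. Among 5 tests for a library far from the others, over all 10 libraries for each tested member, none was met.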

How the results depend on the processing

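The Insig2 rhythm, its ZT12 against ZT0 difference and the Srebf1 zone difference kept direction and call under every alternative run. Counts of members called moved as follows. Rhythm: 1, and 2 with DESeq2 or, over fits without 1 library, 1 to 2. Any time: 1 to 2 without 1 library. ZT18 against ZT6: 0, and 0 to 2 without 1 library. Zone by time: 0, and 0 to 1 without 1 library. Zone: 1, against 2 at 20 CPM or with odd-numbered landmarks, and 1 to 2 without 1 library. Zone at ZT0: 2, against 0 with DESeq2 or library size alone, 1 in cells of at least 3000 UMIs, with even-numbered landmarks or without both ZT18 libraries, and 1 to 2 without 1 library. Zone at ZT6: 1, against 0 in the deeper cells, and 0 to 1 without 1 library. Zone at ZT18: 2, against 1 with DESeq2 or even-numbered landmarks, 0 in the deeper cells, and 0 to 2 without 1 library. Among the differences given in the report, signs reversed in 4, none of them called: Srebf2 by zone (-0.0533 with library size alone, -0.0186 with even-numbered landmarks, -0.0564 to 0.11 without 1 library), Insig1 by zone (0.0327 without both ZT18 libraries), Scap in ZT12 against ZT0 (-0.163 to 0.197 without 1 library) and Insig2 in ZT18 against ZT6 (-0.0209 to 0.207 without 1 library). Without 1 library, signs also reversed among uncalled differences not given there: in the zone at single times for Insig1 (-0.093 to 0.217 at ZT0, -0.0907 to 0.131 at ZT6, -0.155 to 0.102 at ZT12) and for Srebf2 at all 4 times (widest at ZT6, -0.911 to 1.08), and in the contrast of ZT0 and ZT12 with ZT6 and ZT18 for Insig2 (-0.117 to 0.0595), Srebf1 (-0.168 to 0.0281) and Srebf2 (-0.0709 to 0.194). Under other alternatives, signs also reversed in uncalled zone differences at single times of Scap (ZT6, ZT12 and ZT18), Insig1 (ZT6 and ZT12) and Srebf2, in the middle zone for Insig1 and in that contrast for Scap. Leaving out both ZT18 libraries in the zone tests was chosen after seeing the data.

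With the replicate letter as a block, Insig2 alone was called in rhythm; ZT18 against ZT6 gave 1 member, Srebf1 (0.89, edgeR adjusted p = 0.0357), and zone by time gave 1, Insig2 (0.46, edgeR adjusted p = 0.0053), although letters pair only ZT0 with ZT12. No other member's call changed under that block. An index column block could not be fitted for ZT18 against ZT6, any time or the contrast of ZT0 and ZT12 with ZT6 and ZT18, and zone by time was not run without both ZT18 libraries.

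Counts over all genes moved more. Rhythm gave 458 genes, 792 with DESeq2, 710 without a filter, 283 at 20 CPM, 749 with the letter block, 231 without both ZT18 libraries and 228 to 465 without 1 library (228 without ZT18A, 249 without ZT18B, 272 without ZT6B, 302 without ZT12B). Any time gave 586, 1071 without a filter, 380 at 20 CPM, 989 with the letter block, 231 without both ZT18 libraries and 245 to 669 without 1 library (245 without ZT18B, 292 without ZT18A, 314 without ZT6B, 318 without ZT6A). ZT12 against ZT0 gave 306, 469 without a filter, 504 with the letter block and 588 with the index column block. ZT18 against ZT6 gave 338, 595 without a filter, 199 at 20 CPM, 730 with the letter block and 50 to 494 without 1 library (50 without ZT6A, 60 without ZT6B, 66 without ZT18B, 80 without ZT18A). The contrast of ZT0 and ZT12 with ZT6 and ZT18 gave 45, 91 with DESeq2, 140 without a filter, 29 at 20 CPM, 84 with the letter block and 1 to 79 without 1 library (1 without ZT6A, 16 without ZT18B, 24 without ZT6B, 25 without ZT12A, 28 without ZT18A, 79 without ZT0B). Zone gave 2210, and 1234 in the deeper cells. Zone at ZT0, ZT6, ZT12 and ZT18 gave 1190, 629, 892 and 582, against 538, 314, 505 and 295 with DESeq2, and 226, 367 and 122 in the deeper cells at the last 3 of these times. Without 1 library, the ZT0 count went to 768 (ZT0C left out), the ZT6 count to 215 (ZT6A) or 279 (ZT6B), the ZT12 count to 590 (ZT12C) and the ZT18 count to 146 (ZT18A) or 192 (ZT18B). Zone by time gave 4, and 0 to 42 over all alternatives (0 without ZT18A or ZT18B, 1 without ZT6B, 2 without ZT12B, 7 without ZT0A or ZT12C, 42 without ZT0C, 37 with the letter block). The middle zone gave 63, 39 with DESeq2, 33 with even-numbered landmarks, 34 without ZT6A, 41 without ZT0B and 103 without ZT0C. Depth limits Srebf2 and Mylip most.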
